A study of Mus musculus with 12 samples.

Results

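The CCN family comprises secreted, cysteine-rich matricellular proteins, and its mRNAs were examined in newborn mouse calvaria, the flat bones of the skull roof. The 5 genes *Ccn1* to *Ccn5* (older names *Cyr61*, *Ctgf*, *Nov*, *Wisp1* and *Wisp2*) were taken by name, out of 23715 genes in the files. They were chosen by their FPKM values in P-KO against P-Ctrl and in R-Het against R-WT, the comparisons below, so those values are given as a description, without a test. All 5 were among the 13059 genes that passed the filter on low values, a minimum of 1 FPKM in 3 or more of the 12 mice. FPKM (fragments per kilobase of transcript and per fixed number of mapped fragments) is scaled for transcript length and depth. The sixth mouse family gene, *Ccn6* (*Wisp3*), lay between 0 and 0.467 FPKM in the 12 mice and was not tested.

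RNA-seq of C57BL/6 calvaria covered 4 groups of 3 mice, in 2 sets that were each compared within themselves to ask which genes depend on *Med23* and which on *Runx2*. In the first set, P-Ctrl mice are labelled WT and P-KO mice carry a deletion of *Med23* specific to mesenchymal stem cells (*Med23* MSC-/-). In the second set, R-WT mice are WT and R-Het mice are heterozygous for *Runx2* (Runx2+/-). *Med23* encodes a Mediator subunit and *Runx2* the master transcription factor of osteoblasts. The labels give newborn calvaria, and the study's methods give parietal bone at postnatal day 2. The study describes a floxed *Med23* allele removed by *Prx1-Cre*, which is active in limb and craniofacial mesenchyme, so blood, endothelial and other cells of the tissue keep *Med23*. The study's figure legends give the controls of *Med23* MSC-/- mice as mice with the floxed allele (*Med23* fl/fl), whereas the label reads WT.

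CCN proteins are built from up to 4 modules, an IGFBP-like module, a von Willebrand factor C module, a thrombospondin type I module and a C-terminal cystine knot. They signal from the matrix through integrins, syndecans and LRP co-receptors and bind growth factors such as BMP and TGF-beta. *Ccn1* and *Ccn2* are textbook targets of YAP/TAZ with TEAD, and *Ccn2* loss in mice disturbs cartilage and bone. *Ccn4* and *Ccn5* were first described as genes induced by WNT1, and CCN5 is the family member without the C-terminal module.

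The shared signature of the family is a cysteine motif in the IGFBP-like module. Its 24 coding bases are shown because they are the stretch by which the family is recognised and show how far the members differ in sequence. They were read from the GENCODE M21 transcripts of GRCm38, 5′ to 3′, with the 4 cysteine codons of each in capitals.
Ccn1: ggcTGCggcTGCTGTaaggtcTGC
Ccn2: ggcTGCggcTGCTGCcgcgtcTGC
Ccn3: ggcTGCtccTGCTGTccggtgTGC
Ccn4: ggcTGTgaaTGCTGTaagataTGT
Ccn5: ggcTGTggcTGCTGTcgagtgTGT

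All 5 members held 4 cysteine codons at the same places of this motif. Compared with *Ccn2*, the stretch differed at 4 bases in *Ccn1*, 5 in *Ccn5*, 6 in *Ccn3* and 10 in *Ccn4*. The *Ccn5* coding sequence had 251 codons, against 348 in *Ccn2*, 354 in *Ccn3*, 367 in *Ccn4* and 379 in *Ccn1*. Cysteine codons numbered 29 in *Ccn5* and between 38 and 40 in the other 4 members. The longest identical run between the coding sequences of any 2 members was 18 bases (*Ccn1* and *Ccn2*), and between whole transcripts 28 bases (*Ccn2* and *Ccn3*).

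Each member had 1 RefSeq transcript in the files, so no value was split over isoforms. On GRCm38, *Ccn1* (NM_010516) lies at chr3:145646971-145649985 on the minus strand, and *Ccn2* (NM_010217) at chr10:24595442-24598683 on the plus strand. *Ccn3* (NM_010930, chr15:54745910-54753762) and *Ccn4* (NM_018865, chr15:66891369-66923201) share a chromosome and the plus strand. *Ccn5* (NM_016873) lies at chr2:163820752-163833146 on the plus strand. *Ccn2* is on the same chromosome as the targeted *Med23*, with 271 kb between them.

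The libraries held roughly 7800000 to 11600000 fragments each, estimated from the smallest FPKM values. That puts about 900 to 4700 fragments behind each *Ccn1* value, 1300 to 3600 behind *Ccn2* and 170 to 1500 behind *Ccn5*. *Med23* was at 5.32 ± 0.732 FPKM in P-Ctrl and 5.30 ± 0.425 FPKM in P-KO (SD, n = 3), and *Runx2* at 31.6 ± 5.39 FPKM in R-WT and 33.5 ± 2.76 FPKM in R-Het (SD, n = 3). Neither gene was lower in the libraries labelled as its own mutant, and *Runx2* was at 30.5 to 38.0 FPKM in P-Ctrl and 23.7 to 28.7 FPKM in P-KO, without overlap (adjusted p = 0.127, limma). Values for whole transcripts in whole tissue need not show the loss of a few exons or of 1 allele, so the labels could not be checked this way and groups are named as labelled. *Xist*, expressed from the inactive X of females, was above 1 FPKM in 3 libraries (P-Ctrl mice 2 and 3 and R-WT mouse 1) and at most 0.0663 FPKM in the other 9. All 10 osteoblast markers (*Runx2*, *Sp7*, *Col1a1*, *Alpl* and others) were detected in every mouse, with a summed level of 20679 FPKM or more. Skeletal muscle markers summed to 23.7 to 1378 FPKM in P-Ctrl, 598 to 4164 in P-KO, 1910 to 5622 in R-WT and 26.7 to 188 in R-Het. Muscle markers thus overlapped in the *Med23* set and were lower without overlap in R-Het.

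Within the family, *Ccn5* mRNA was lower in both kinds of mutant, and *Ccn1* was higher in Runx2+/- calvaria. In *Med23* MSC-/- calvaria the mean of *Ccn5* was 3.33-fold lower than in controls, while the other 4 members overlapped between genotypes. In Runx2+/- calvaria *Ccn5* was 1.76-fold lower, *Ccn1* 2.53-fold higher and *Ccn4* 1.21-fold higher than in WT, each without overlap of the 3 and 3 mice. *Ccn2* and *Ccn3* overlapped between genotypes in both sets. Of all genes tested, 27.3% in the *Med23* set and 21.1% in the *Runx2* set had groups without overlap. In whole tissue, fewer cells of a type and less RNA per cell cannot be told apart.

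**Figure D1:**
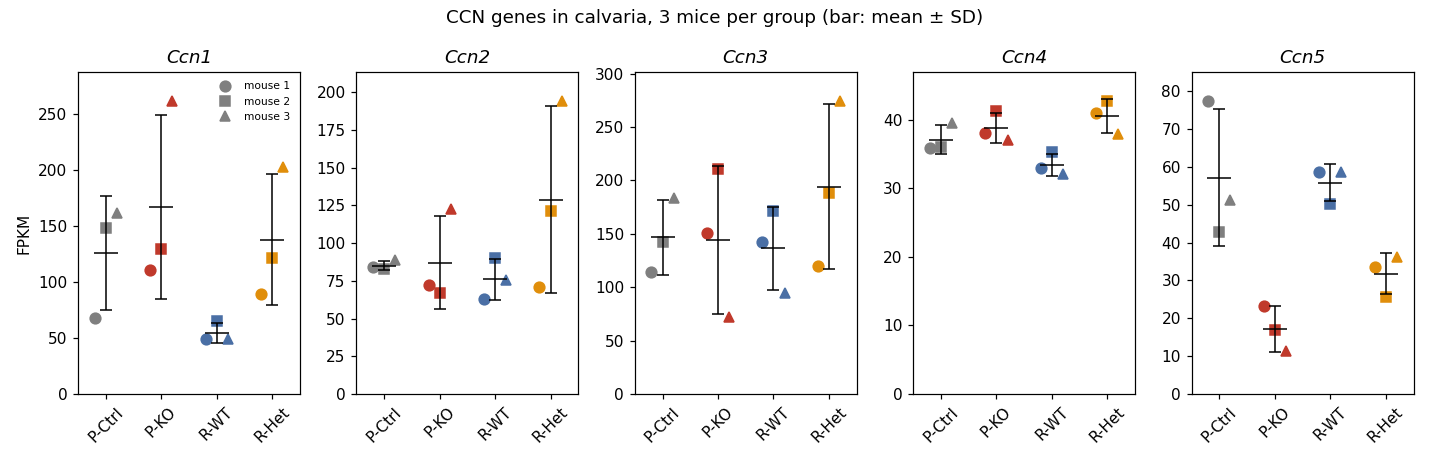
FPKM of the 5 CCN genes in each of the 12 mice (vertical axis, linear, from 0), by group along the horizontal axis. Symbols mark mouse 1, 2 and 3 of a group and black bars the mean ± SD; *Ccn5* is below all controls in every P-KO and R-Het mouse, and *Ccn1* is above all R-WT mice in every R-Het mouse.

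*Ccn1* encodes CYR61, an adhesive, rapidly inducible protein that promotes angiogenesis and osteoblast differentiation. In P-Ctrl it was at 67.3, 148 and 161 FPKM in mice 1, 2 and 3, and in P-KO at 111, 129 and 261 FPKM. The groups overlapped, with P-Ctrl mouse 1 the lowest and P-KO mouse 3 the highest of the set. P-Ctrl mouse 1, the only P-Ctrl library without *Xist*, was below all P-KO mice, which all lacked *Xist*. Among libraries without *Xist* the groups thus did not overlap, with 1 control mouse left. The means were 126 ± 50.9 and 167 ± 82.0 FPKM (SD, n = 3). The log2 fold change of FPKM + 1 was 0.40 ± 0.41 (SE), a value that 1110 genes (8.5%) reached or passed. In a fit of all mice with a term for *Xist*, this fold change was 0.73. In the other set, R-WT mice had 49.2, 64.9 and 49.3 FPKM and R-Het mice 89.2, 121 and 203 FPKM. All R-Het mice were above all R-WT mice, and R-Het mouse 3 was the highest. The means were 54.4 ± 9.05 and 138 ± 58.5 FPKM (SD, n = 3), a log2 fold change of 1.25 ± 0.27 (SE).

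The R-WT level of *Ccn1* was the lowest of the 4 groups. It was 2.31-fold below P-Ctrl, the other control group, without overlap, whereas R-Het overlapped both P-Ctrl and P-KO. A total of 22 of the 13059 genes tested (0.168%) had a log2 fold change as high as that of *Ccn1* in R-Het. With each mouse left out in turn, that fold change stayed between 0.93 and 1.52. The summed endothelial markers were at 196 to 221 FPKM in R-WT and 165 to 181 FPKM in R-Het, and the smooth muscle markers at 286 to 369 and 315 to 443 FPKM. Endothelial markers were thus lower where *Ccn1* was higher, and smooth muscle markers overlapped. Their part in the *Ccn1* difference, and that of the lower muscle markers in R-Het, was not tested.

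The promoter table of RefSeq (GRCm38.p6) held 1 of the 5 members, *Ccn1*. Its 250 bases before the start of transcription, chr3:145649986-145650235 read on the minus strand, are shown because *Ccn1* is the member that was higher without overlap by the most. Capitals mark a TEAD motif (CATTCC, the reverse complement of GGAATG), a CRE half-site (CGTCA, the reverse complement of TGACG) and a TATA box (TATAAA).
Ccn1 promoter: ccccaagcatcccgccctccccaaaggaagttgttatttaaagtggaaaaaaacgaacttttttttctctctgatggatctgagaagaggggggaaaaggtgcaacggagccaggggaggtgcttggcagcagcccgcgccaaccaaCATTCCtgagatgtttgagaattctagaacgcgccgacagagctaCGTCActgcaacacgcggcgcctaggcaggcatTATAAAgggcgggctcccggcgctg

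The TEAD motif begins 103 bases before the start, the CRE half-site 58 and the TATA box 25. On either strand, these letters occur in 12.6%, 17.8% and 12.4% of all 32851 promoter windows in the table. The RUNX letters TGTGGT, the AP-1 letters TGANTCA and the CArG box of SRF did not occur in the *Ccn1* window, and are found in 14%, 6.75% and 1.47% of all windows. These matches describe the sequence only.

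*Ccn2* encodes CTGF, a matrix protein that acts with TGF-beta and is needed for cartilage and bone formation. It varied little among P-Ctrl mice, at 84.1, 82.7 and 88.6 FPKM. P-KO mice had 72.0, 67.0 and 122 FPKM, so that mice 1 and 2 were below and mouse 3 above all controls. The means of 85.2 ± 3.07 and 87.1 ± 30.7 FPKM (SD, n = 3) differed by a log2 fold change of -0.02 ± 0.21 (SE), which lay between -0.29 and 0.14 with 1 mouse left out. R-WT mice had 62.7, 89.9 and 75.6 FPKM and R-Het mice 70.9, 122 and 194 FPKM. R-Het mice 2 and 3 exceeded every R-WT mouse and mouse 1 did not, with a log2 fold change of 0.65 ± 0.32 (SE). Leaving out R-Het mouse 3 gave the lowest value of this fold change, 0.30, and leaving out R-Het mouse 1 the highest, 1.02.

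The ratio of *Ccn1* to *Ccn2* within a mouse separated the *Runx2* set. It was 0.784, 0.722 and 0.652 in R-WT mice and 1.26, 0.996 and 1.04 in R-Het mice. In the *Med23* set it was 0.800, 1.79 and 1.82 in P-Ctrl and 1.54, 1.93 and 2.13 in P-KO, with overlap. *Ccn1* was therefore below *Ccn2* in all R-WT mice, in P-Ctrl mouse 1 and in R-Het mouse 2, where both were nearly equal.

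*Ccn3* encodes NOV, which inhibits BMP signalling in bone and binds Notch1. It varied widely among mice of 1 genotype, at 114, 142 and 184 FPKM in P-Ctrl and at 150, 210 and 71.7 FPKM in P-KO. P-KO mice included both the highest and the lowest value of the set. R-WT mice had 142, 172 and 94.5 FPKM and R-Het mice 120, 188 and 274 FPKM, again with overlap. The log2 fold changes were -0.13 ± 0.37 and 0.47 ± 0.31 (SE) in P-KO and R-Het. The P-KO value turned positive, to 0.30 and 0.05, when P-KO mouse 3 or P-Ctrl mouse 3 was left out. It was 0.09 in a fit of all mice with an *Xist* term.

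*Ccn4* encodes WISP1, a WNT-inducible protein made by osteoblasts and their precursors. It was the lowest of the 5 in both control groups, and its 3 values lay close together in each group. P-Ctrl mice had 35.8, 36.0 and 39.5 FPKM and P-KO mice 38.1, 41.3 and 37.1 FPKM, with overlap. The overlap lay in P-Ctrl mouse 3. P-Ctrl mouse 1, the only P-Ctrl library without *Xist*, was below all P-KO mice. R-WT mice had 32.9, 35.2 and 32.1 FPKM and R-Het mice 41.0, 42.7 and 37.9 FPKM, so that every R-Het mouse was above every R-WT mouse. The log2 fold changes were 0.06 ± 0.08 (SE) in P-KO and 0.27 ± 0.08 (SE) in R-Het. The first of these became -0.04 when each mouse was scaled to the same FPKM sum. As for *Ccn1*, R-WT lay below P-Ctrl without overlap, and the R-Het range of 37.9 to 42.7 FPKM overlapped that of P-Ctrl.

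*Ccn5* encodes WISP2, a WNT-inducible protein of osteoblasts and other mesenchymal cells that lacks the C-terminal module. P-Ctrl mice had 77.3, 42.7 and 51.3 FPKM, and P-KO mice 23.3, 16.9 and 11.3 FPKM. The highest P-KO mouse was well below the lowest P-Ctrl mouse. The means were 57.1 ± 18.0 and 17.2 ± 6.00 FPKM (SD, n = 3), and the log2 fold change was -1.69 ± 0.29 (SE). R-WT mice had 58.5, 50.2 and 58.7 FPKM, and R-Het mice 33.4, 25.7 and 36.1 FPKM. Here too the groups did not overlap, with means of 55.8 ± 4.85 and 31.7 ± 5.44 FPKM (SD, n = 3) and a log2 fold change of -0.81 ± 0.14 (SE). Both control groups overlapped in *Ccn5*, unlike in *Ccn1* and *Ccn4*.

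*Ccn5* kept its direction under each of the 13 alternative settings run in each set. Its groups did not overlap and it has 1 transcript, so only equal FPKM sums and the *Xist* term could have reversed it. Equal FPKM sums gave a log2 fold change of -1.79 in P-KO and -0.77 in R-Het. With 1 mouse left out in turn, its log2 fold change ranged from -1.92 to -1.43 in P-KO and from -0.90 to -0.66 in R-Het. A log2 fold change at or below that of *Ccn5* was found in 16 genes (0.123%) in P-KO and in 267 genes (2.04%) in R-Het. Among libraries without *Xist*, P-Ctrl mouse 1 had 77.3 FPKM against 11.3 to 23.3 in P-KO, and R-WT mice 2 and 3 had 50.2 and 58.7 FPKM against 25.7 to 36.1 in R-Het. In the *Med23* set this leaves 1 control mouse, which was also the highest of the 3 in *Ccn5*. A fit of all mice with a term for *Xist* gave -1.89 in P-KO and -0.91 in R-Het.

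Several marker sums differed between genotypes beside *Ccn5*. The summed osteoblast markers were at 42600 to 44310 FPKM in P-Ctrl and 20679 to 27886 FPKM in P-KO, and 34649 to 39493 FPKM in R-WT and 24865 to 32119 FPKM in R-Het, without overlap in either set. In P-KO none of the 10 markers had a positive log2 fold change and their median was -0.48. In R-Het 5 of the 10 were positive and the median was 0.00, and the lower sum there lay mainly in *Spp1* (means of 17845 and 10491 FPKM) and *Bglap* (7179 and 5524 FPKM), whereas *Col1a1* was at 4781 and 5254 FPKM. Tendon and fibroblast markers summed to 3361 to 3710 FPKM in P-Ctrl and 2815 to 3277 FPKM in P-KO, and overlapped in the *Runx2* set. The lower sum in P-KO lay mainly in *Lum* (means of 1630 and 1339 FPKM) and *Col3a1* (1567 and 1239 FPKM). Of the 8 genes, 5 had a positive log2 fold change in P-KO, with a median of 0.41, among them *Tnmd* (206 and 313 FPKM). The erythroid markers were at 11395 to 14985 FPKM in P-Ctrl and 6161 to 10026 FPKM in P-KO, and overlapped in the *Runx2* set at 13136 to 14910 and 3330 to 13566 FPKM. Chondrocyte markers were at 186 to 221 FPKM in P-Ctrl and 97.9 to 111 FPKM in P-KO, and neural markers at 11.9 to 15.0 and 22.9 to 37.4 FPKM, while both overlapped in the *Runx2* set. The lower chondrocyte sum in P-KO lay mainly in *Col11a2* (means of 120 and 50.5 FPKM) and *Snorc* (34.4 and 10.6 FPKM). Of the 9 tested chondrocyte genes, 3 had a positive log2 fold change in P-KO, and the median was -0.76. The 3 were *Hapln1* (0.73, without overlap), *Acan* (0.50) and *Sox9* (0.22). Adipocyte markers overlapped in the *Med23* set and were at 311 to 464 FPKM in R-WT and 180 to 248 FPKM in R-Het. Macrophage markers overlapped in the *Med23* set and were at 81.2 to 95.1 FPKM in R-WT and 73.8 to 77.1 FPKM in R-Het. The endothelial sum was also lower in R-Het, and the smooth muscle sum higher in P-KO, each without overlap. The part of any of these, or of the muscle markers, in the *Ccn5* difference was not tested.

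**Figure D2:**
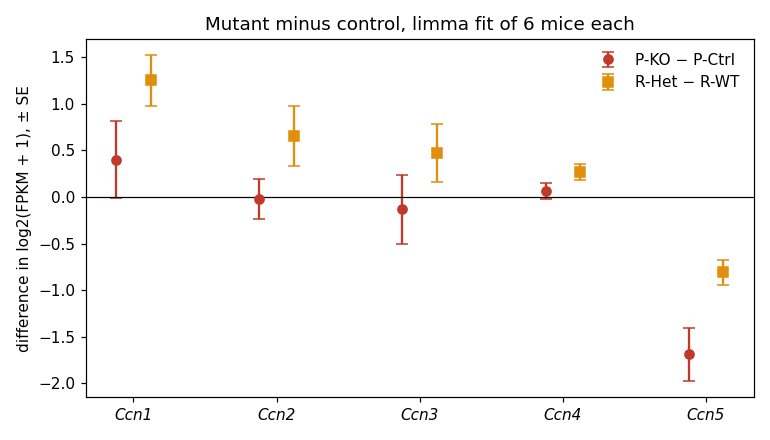
Difference in log2(FPKM + 1) between mutant and control (vertical axis) for the 5 CCN genes (horizontal axis), in the *Med23* set (circles) and the *Runx2* set (squares). Bars are the SE of the limma fit; *Ccn5* is at -1.69 and -0.81, and *Ccn1* at 0.40 and 1.25.

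Read against all genes, the members' counts were as follows. An adjusted p under 0.05 (limma, Benjamini-Hochberg over all genes) was reached by 205 genes (1.57%) in P-KO, 132 higher (1.01%) and 73 lower (0.559%), and by 247 genes (1.89%) in R-Het, 52 higher (0.398%) and 195 lower (1.49%). Of the 5 members, *Ccn5* was in the lower class in both sets and no other member was called, which reads as a description because the choice used these contrasts. Under the 13 alternative settings, *Ccn5* was called in 5 in P-KO and in 4 in R-Het. *Ccn1* was called in 1 of the 13 in R-Het, with equal FPKM sums. Groups without overlap were found for 27.3% of all genes in the *Med23* set (19.6% higher, 7.68% lower), against 1 of 5 members, and for 21.1% in the *Runx2* set (10.7% higher, 10.4% lower), against 3 of 5. A gene lower without overlap in both sets, as *Ccn5* was, was 1 of 222 (1.7%). The median log2 fold change of the members was -0.02 in P-KO and 0.47 in R-Het, and that of all genes 0.06 and 0.02.

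The order of the members differed between genotypes. *Ccn5* was above *Ccn4* in both control groups and below it in both mutant groups, and *Ccn1* was at rank 4 in R-WT and rank 2 in R-Het. In P-Ctrl the means fell from *Ccn3* over *Ccn1*, *Ccn2* and *Ccn5* to *Ccn4*, and only the first 3 could not be separated from their neighbours by their ranges. In P-KO *Ccn1* came first and *Ccn5* last, below *Ccn4* without overlap. In R-WT *Ccn3* was above *Ccn2* without overlap, and *Ccn5* and *Ccn1* shared their range above *Ccn4*. In R-Het the order was *Ccn3*, *Ccn1*, *Ccn2*, *Ccn4* and *Ccn5*, with overlap among the first 3.

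Because FPKM is scaled for length, *Ccn5* and *Ccn4* can be set against each other within a mouse. The ratio of *Ccn5* to *Ccn4* was 2.16, 1.19 and 1.30 in P-Ctrl mice and 0.612, 0.410 and 0.305 in P-KO mice. It was 1.78, 1.43 and 1.83 in R-WT mice and 0.816, 0.601 and 0.953 in R-Het mice. *Ccn5* thus exceeded *Ccn4*, the other WNT-inducible member, in each control mouse and was below it in each mutant mouse. The summed FPKM of the 5 genes was 379, 452 and 525 in P-Ctrl, 395, 464 and 504 in P-KO, 346, 412 and 310 in R-WT and 355, 499 and 745 in R-Het. Total CCN mRNA overlapped between genotypes in both sets, as did the shares of *Ccn2*, *Ccn3* and *Ccn4*. *Ccn5* made up 9.46 to 20.4% of the sum in P-Ctrl and 2.24 to 5.91% in P-KO, and 12.2 to 18.9% in R-WT and 4.85 to 9.43% in R-Het. *Ccn1* made up 14.2 to 15.9% in R-WT and 24.3 to 27.2% in R-Het, and overlapped in the *Med23* set.

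**Figure D3:**
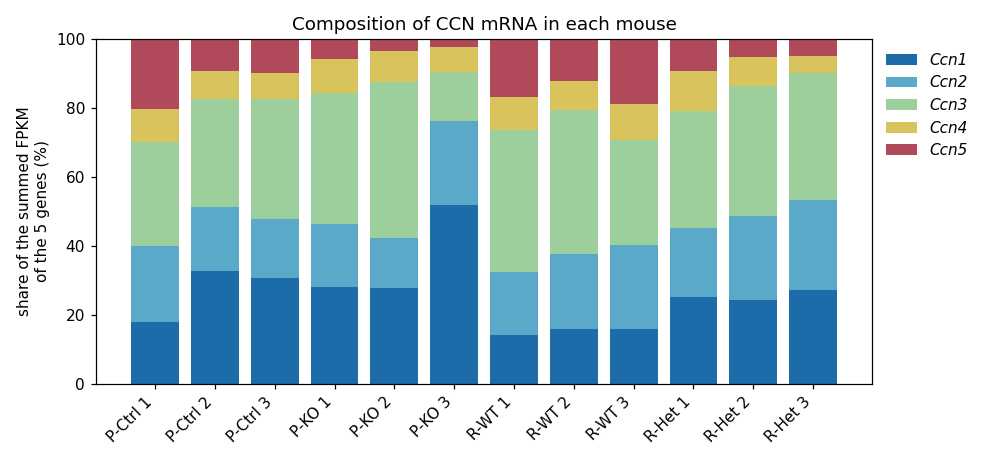
Share of each CCN gene in the summed FPKM of the 5 genes (vertical axis, %), 1 bar per mouse. The *Ccn5* segment is at most 5.91% in P-KO and 9.43% in R-Het and at least 9.46% in every control mouse; in P-KO mouse 3 *Ccn1* alone makes up 51.9%.

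Levels of *Ccn1*, *Ccn2* and *Ccn3* also varied among mice of the same group. R-Het mouse 3 was the highest of its group in *Ccn1*, *Ccn2* and *Ccn3*, and P-KO mouse 3 the highest of its group in *Ccn1* and *Ccn2* and the lowest in *Ccn3* and *Ccn5*. The genes whose log2 values followed *Ccn1* most closely over the 12 mice were *Dusp1* (Pearson r = 0.918), a rapidly induced phosphatase, *Per1* (0.891), a clock gene, and *St3gal4* (0.888). For *Ccn2* they were *Fance* (0.901), *Klf9* (0.898) and again *Per1* (0.874). *Per1* was at 22.2 FPKM in R-Het mouse 3 and 16.7 FPKM in P-KO mouse 3, and at most 10.7 FPKM in the other 10 mice. The same mice thus led in *Ccn1*, *Ccn2* and *Per1*.

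*Ccn5* was followed most closely by *Sfrp4* (r = 0.959), a secreted WNT antagonist, *Mapkapk3* (0.958) and *Cd200* (0.946). *Sfrp4* was at 223, 116 and 125 FPKM in P-Ctrl and 86.2, 58.7 and 32.5 FPKM in P-KO, and at 205, 151 and 177 FPKM in R-WT and 82.7, 60.9 and 79.8 FPKM in R-Het. As with *Ccn5*, P-Ctrl mouse 1 was the highest and P-KO mouse 3 the lowest of all mice. *Ccn3* was followed by *Lrrn4cl* (0.960), *Gas7* (0.953) and *Medag* (0.949), and *Ccn4* by *Tmtc2* (0.881), *Qrich1* (0.877) and *Pcx* (0.866). These correlations describe 12 mice that share 4 groups, and the genes were picked as the highest of all genes tested.

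Around the family, 117 genes of 9 lists were examined, covering receptors, bound growth factors, upstream pathways and other matricellular proteins, of which 111 were tested. In P-KO 5 rose and 7 fell, and in R-Het 1 rose and 2 fell, at an adjusted p under 0.05 (limma, Benjamini-Hochberg over all genes). Of all genes, 1.57% passed in P-KO and 1.89% in R-Het. The lists were chosen with earlier results of these data known, so the list counts and calls are a description. The list genes had median log2 fold changes of -0.06 and 0.11, beside 0.06 and 0.02 for all genes. The genes called in both sets were *Smoc1*, *Sparcl1* and *Gadd45a*, each in the same direction. With the replicate number as a block, *Sparcl1* and *Gadd45a* were not called in R-Het (adjusted p = 0.0784 and 0.0706, limma).

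Among 13 receptors and co-receptors of CCN proteins, none passed the test in either set (limma), with 3 in P-KO and 4 in R-Het at an unadjusted p under 0.05, a level that 21.3% and 15.4% of all genes reached. The median log2 fold change was -0.21 in P-KO and -0.11 in R-Het. Integrin beta 3 (*Itgb3*), a partner of CCN1 and CCN2, was at 39.6, 40.6 and 38.5 FPKM in R-WT and 29.3, 18.6 and 22.0 FPKM in R-Het, and came close to the threshold without passing it (log2 -0.76 ± 0.15 SE, adjusted p = 0.05004, limma). In P-KO it overlapped the controls, with a log2 fold change of -0.66 ± 0.35 (SE). None of the 6 bound growth factors passed in either set, with 4 and 1 at an unadjusted p under 0.05 (limma). *Tgfb1* had a log2 fold change of -0.46 and *Tgfb2* of 0.39 in P-KO, and *Bmp4* of 0.44 in R-Het.

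The Hippo pathway, whose effectors YAP and TAZ act on *Ccn1* and *Ccn2*, had 14 tested genes and none was called in either set (limma, 1 in each at an unadjusted p under 0.05). *Wwtr1*, which encodes TAZ, was at 39.1 to 41.4 FPKM in P-Ctrl and 43.4 to 45.7 FPKM in P-KO, and at 41.4 to 43.7 FPKM in R-WT and 46.7 to 52.0 FPKM in R-Het, without overlap in either set. Its log2 fold changes were 0.15 and 0.19 (adjusted p = 0.278 and 0.319, limma). Of all genes, 19.6% in P-KO and 10.7% in R-Het were higher without overlap. The largest log2 fold change of the list in P-KO was that of the kinase gene *Stk3* (0.38 ± 0.09 SE). In R-Het it was that of the kinase gene *Lats1* (0.22 ± 0.10 SE, adjusted p = 0.363, limma), also without overlap. Of 18 other YAP/TAZ target genes, *Fjx1* rose (log2 0.63, adjusted p = 0.0498, limma) and *Gadd45a*, a stress-inducible growth arrest gene, fell (-0.73, adjusted p = 0.0269) in P-KO. *Gadd45a* was at 15.8, 16.4 and 18.1 FPKM in P-Ctrl and 10.1, 10.2 and 8.95 FPKM in P-KO. It also fell in R-Het, from 14.7, 19.6 and 14.1 to 8.49, 9.10 and 9.71 FPKM (log2 -0.75 ± 0.13 SE, adjusted p = 0.0356, limma). The other 17 targets did not pass in R-Het, where *Ccn1* was higher, and the list had a median log2 fold change of 0.16 with 14 of 18 genes positive. At an unadjusted p under 0.05 there were 6 of the 18 in each set (limma).

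*Ccn1* is itself an immediate early gene of the serum response. Of 20 other such genes tested, 5 fell in P-KO and none was called in R-Het (limma, 7 at an unadjusted p under 0.05 there). *Egr1*, a zinc finger transcription factor, was at 26.5, 39.6 and 25.4 FPKM in P-Ctrl and 6.58, 6.38 and 7.35 FPKM in P-KO (log2 -1.99 ± 0.17 SE, adjusted p = 0.0211, limma). *Egr3*, *Ier2*, *Egr2* and *Junb* fell by 1.12, 0.88, 0.83 and 0.83 on the log2 scale. *Ccn1* overlapped between the same groups. *Egr1* in R-Het, at 28.5, 15.5 and 31.1 FPKM, overlapped R-WT.

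Of 12 cytoskeletal targets of SRF, a factor that also acts on CCN genes, *Cnn1* (log2 1.38), *Tagln* (0.92) and *Myl9* (0.78) rose in P-KO, and none was called in R-Het (limma, 5 at an unadjusted p under 0.05). *Tagln* was at 63.0 to 86.6 FPKM in P-Ctrl and 132 to 162 FPKM in P-KO. *Cnn1* and *Tagln* are also in the smooth muscle marker list, whose sum was 283 to 314 FPKM in P-Ctrl and 344 to 429 FPKM in P-KO. That list was split, with 4 of 7 tested genes positive in P-KO. *Rgs5* of the list fell there, from a mean of 90.4 to 44.3 FPKM (log2 -1.03, adjusted p = 0.0327, limma). The part of smooth muscle cells in the changes of *Cnn1*, *Tagln* and *Myl9* was not tested.

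None of the 8 TGF-beta responsive genes or of the 8 tested WNT target genes passed in either set (limma). At an unadjusted p under 0.05 there were 3 and 2 in P-KO and 1 and 4 in R-Het. The WNT list bears on *Ccn4* and *Ccn5*. Its largest change in P-KO was *Nkd2*, an inhibitor of WNT signalling, at 8.74, 6.33 and 6.00 FPKM in P-Ctrl and 4.09, 3.19 and 3.22 FPKM in P-KO (log2 -0.82 ± 0.15 SE, adjusted p = 0.0517, limma). The list's median log2 fold change was -0.14 in P-KO and 0.17 in R-Het.

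Among 14 other matricellular genes, *Smoc1* rose and *Sparcl1* fell in both sets. *Smoc1*, a calcium-binding BMP modulator, was at 4.47, 4.35 and 3.81 FPKM in P-Ctrl and 10.1, 6.93 and 9.36 FPKM in P-KO (log2 0.90 ± 0.14 SE, adjusted p = 0.0386, limma). It rose from 7.53, 5.73 and 8.66 FPKM in R-WT to 13.2, 13.3 and 14.8 FPKM in R-Het (log2 0.85 ± 0.14 SE, adjusted p = 0.0309, limma). *Sparcl1*, a relative of osteonectin, fell by 0.61 on the log2 scale in P-KO and by 0.63 in R-Het, without overlap in either set. *Sparcl1* thus shared its direction with *Ccn5*, and *Smoc1* with *Ccn1* in R-Het.

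These calls rest on 3 mice a group. With 1 of the 6 mice left out, *Egr1* passed in 3 of 6 fits and *Junb* in 1 of 6, whereas the other 10 called genes in P-KO lost their call whichever mouse was left out. In R-Het, *Smoc1* and *Sparcl1* passed in 2 of 6 such fits and *Gadd45a* in 1 of 6.

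**Figure D4:**
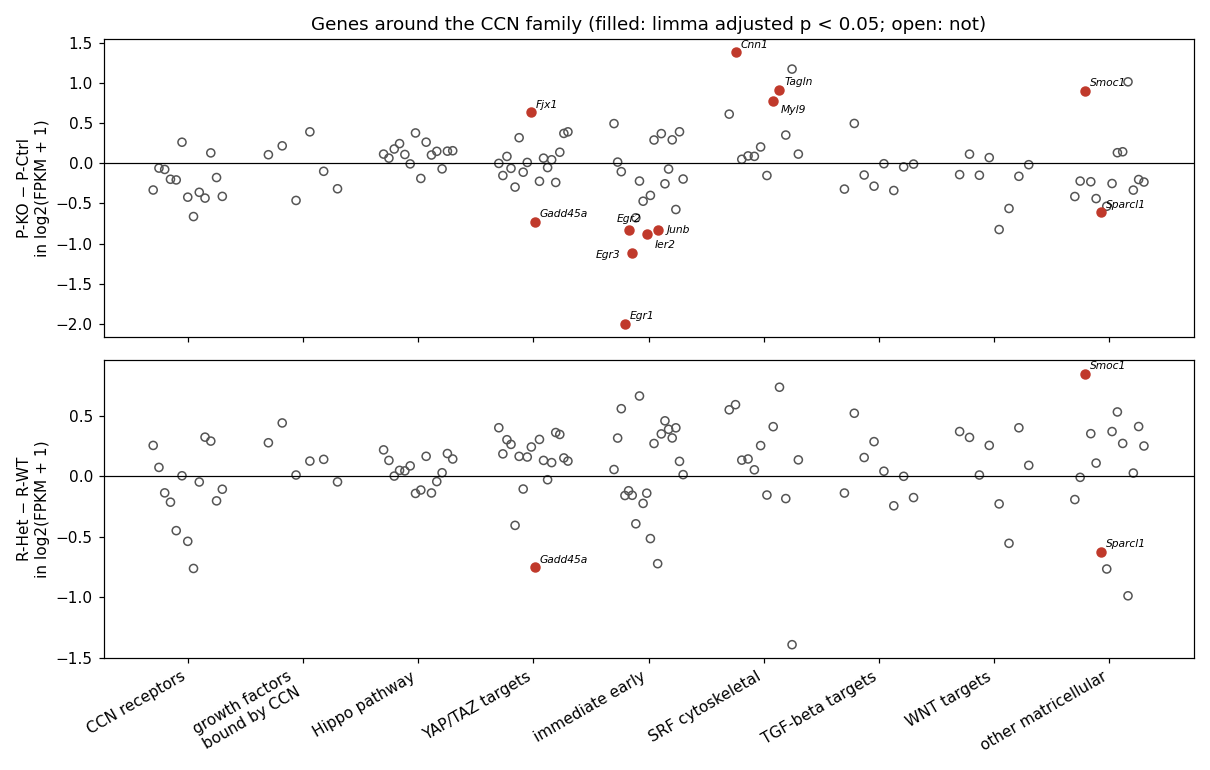
Difference in log2(FPKM + 1) between mutant and control for the tested genes of the 9 lists around the CCN family (horizontal axis), in the *Med23* set (upper panel) and the *Runx2* set (lower panel). Filled, named points have a limma adjusted p under 0.05: 12 genes in P-KO, 5 of them immediate early genes, and 3 in R-Het.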

How the data were processed

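The authors deposited 1 FPKM value per RefSeq transcript and mouse. The submitters' processing notes name mm10 and Bowtie 0.12.8, and the program that computed FPKM is not given in the sources used here. The CCN genes and all gene lists were chosen with earlier results of these data known.

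Transcript FPKM values were summed per gene symbol (30411 transcripts, 396 without a symbol, 23715 genes). Tests covered the 13059 genes that reached 1 FPKM in 3 or more mice and were run on log2(FPKM + 1), a scale that understates changes of low genes. Each set of 6 mice had its own limma fit (mean-variance trend, no covariate), and p-values were adjusted by Benjamini-Hochberg. The fit was tested on simulated data. Libraries come from individual mice, and litters and sequencing batches are not given in the sources used here. Besides the CCN genes and both targeted genes, the text names list genes with an adjusted p under 0.05, otherwise the 2 with the largest change, and the 3 genes most correlated with each member. Not all of these are printed. Alternatives were another pseudocount (0.1), no filter, all mice in 1 fit, and all mice in 1 fit with an *Xist* term. Others were the replicate number as a block, equal FPKM sums, the highest transcript per gene and each mouse left out. Computations used R 4.3.3, limma 3.58.1, Python 3.11.15, pandas 2.3.3, numpy 2.4.6, scipy 1.17.1 and matplotlib 3.10.9. Depth was estimated from the smallest FPKM values, assuming GENCODE transcript lengths.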

Additional observations from a re-analysis of the deposited data

How the results depend on the processing

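The direction of *Ccn5* in both sets and of *Ccn1* to *Ccn4* in R-Het held under all alternatives, and *Ccn4* in P-KO became -0.0377 with equal FPKM sums. Where groups did not overlap (*Ccn5* in both sets, *Ccn1* and *Ccn4* in R-Het), leaving out a mouse could not reverse the direction. With 1 mouse left out, log2 fold changes in P-KO ranged over 0.01 to 0.64 (*Ccn1*), -0.29 to 0.14 (*Ccn2*), -0.47 to 0.30 (*Ccn3*), 0.02 to 0.11 (*Ccn4*) and -1.92 to -1.43 (*Ccn5*), and in R-Het over 0.93 to 1.52, 0.30 to 1.02, 0.18 to 0.77, 0.23 to 0.32 and -0.90 to -0.66.

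Counts moved more. In P-KO, genes higher numbered 527 with all mice in 1 fit and 74 when that fit held an *Xist* term. They numbered 23 without a filter and 42 with equal FPKM sums. Genes lower in P-KO numbered 190 with all mice and 12 without a filter. Equal FPKM sums turned the P-KO split from 132 higher and 73 lower to 42 and 65. In R-Het, genes lower numbered 56 with all mice in 1 fit, 113 when that fit held an *Xist* term and 6 without a filter. Genes higher in R-Het numbered 12 without a filter. Of the list genes in P-KO, 8 were higher with all mice in 1 fit and 1 when that fit held an *Xist* term. With equal sums 1 was higher, and without a filter 0 were higher and 1 was lower. In R-Het, 0 were higher and 0 lower without a filter. With 1 mouse left out, genes higher ranged from 0 to 22 and lower from 0 to 13 in P-KO, and from 6 to 34 and 28 to 135 in R-Het. List genes ranged from 0 to 0 higher and 0 to 2 lower in P-KO, and from 0 to 1 and 0 to 2 in R-Het.

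Same-numbered mice deviated together with r = 0.18, 0.259 and 0.0527 across genes in the *Med23* set and 0.0048, -0.0474 and -0.0836 in the *Runx2* set, so the numbers were not taken as pairs, although in the *Med23* set every mouse correlated best with its own number. With the number as a block, 181 genes were higher and 92 lower in P-KO, 21 higher and 69 lower in R-Het, and 1 list gene was lower in R-Het. That gene was *Thbs4* (adjusted p = 0.0440, limma), while *Gadd45a* and *Sparcl1* lost their call there. In this balanced layout the block cannot move a fold change. The SE of *Ccn5* went from 0.29 to 0.16 in P-KO and from 0.14 to 0.10 in R-Het, and that of *Ccn1* from 0.41 to 0.19 and from 0.27 to 0.24. Genes near 1 FPKM, such as *Egr2*, rest on few fragments.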

Other observations

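Genes that neighbour *Ccn2* and *Med23* on chromosome 10 showed no called change in P-KO. Of 30 genes within 1 Mb of *Ccn2* in the files, 9 were tested, and 0 had an adjusted p under 0.05 (limma), with 1 at an unadjusted p under 0.05.

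The change in P-KO and that in R-Het were set against each other for the 111 tested list genes in an interaction contrast over the 12 mice, chosen after seeing the data. No list gene passed at an adjusted p under 0.05 (limma), beside 20 of all 13059 genes. At an unadjusted p under 0.05 there were 25 list genes (22.5%), beside 1992 of all genes (15.3%). For *Egr1* the difference was -1.83 ± 0.34 (SE) on the log2 scale (adjusted p = 0.0588, limma).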
